A study of Mus musculus with 8 samples.

Results

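The aminoacyl-tRNA synthetases, the enzymes that load each transfer RNA (tRNA) with its amino acid, were examined in the whole blood of 8 female C57BL/6J mice. The mice were bought at an age of 6 to 8 weeks and acclimated before restraint began. The 4 RST mice were held in ventilated tubes for 6 h per day (restraint stress) until Day 7. The 4 control mice were left in their cages and had no food or water over the same hours, so both groups fasted during restraint. The methods assign whole cages to a group, so cage and group cannot be told apart. Each mouse gave 1 RNA sample and 1 Affymetrix array of the mouse genome, which reads a gene through 1 or more probe sets. Members were chosen by symbol, as probe sets whose annotation named a synthetase and no other gene, with the scaffold proteins of the multi-synthetase complex added. They came to 76 probe sets of 38 genes, of 45101 probe sets and 18193 named genes on the array. The cytosolic enzymes had 40 probe sets of 19 genes, the mitochondrial enzymes 32 probe sets of 16 genes and the scaffolds Aimp1, Aimp2 and Eef1e1 had 4 probe sets. The cytosolic enzyme Dars had no probe set of its own in the annotation used and was not analysed here.

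A synthetase joins an amino acid to its tRNA at the cost of ATP, and the charged tRNA then feeds the ribosome. Cytosolic and mitochondrial protein synthesis use separate sets of these enzymes, all encoded in the nucleus and nearly all by different genes. Gars and Kars each encode both forms, and Eprs joins the glutamyl and prolyl enzymes in a single protein. In animal cells several cytosolic synthetases are held in a large complex by the scaffolds Aimp1, Aimp2 and Eef1e1. When amino acids run short, uncharged tRNA activates the kinase Gcn2, and the transcription factor ATF4 then induces amino acid transporters, amino acid synthesis and many of the cytosolic synthetases. Reticulocytes, the youngest red cells in blood, still hold RNA and ribosomes that make globin, whereas mature red cells have lost both.

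Values are log2 expression levels, so a difference of 1 is a doubling, and every difference is given as RST minus control. Levels of different probe sets were not set against each other. A probe set passed the filter on low values when it lay above the median of its array in at least 2 of the 4 arrays of a group. All 19 cytosolic genes, 13 of the 16 mitochondrial genes and the 3 scaffolds had a probe set that passed, and Nars2, Mars2 and Wars2 did not. A gene is described at its brightest probe set.

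The arrays and the blood itself differed in ways that touch every value reported here. Control 1 and control 2 had lower hybridization controls (11.93 and 11.90, against 12.35 to 12.74 on the other arrays), which are RNAs spiked in at fixed amounts. RST 4 was the lowest of the 8 arrays for 41.5% of the tested probe sets, for 28 of the 38 member genes and for 15 of the 19 cytosolic genes. Control 1 was the highest for 19 member genes. Reticulocyte markers were higher in RST for 13 of 14 measured genes, and their summed log2 level was 14.77 to 15.05 in control and 15.12 to 15.24 in RST mice. Lymphocyte markers were lower, with 11 of 11 B cell genes (11.53 to 12.54 in control, 10.87 to 11.18 in RST), 10 of 10 T cell genes (11.33 to 11.81 and 10.56 to 11.20) and 6 of 7 natural killer cell genes (10.77 to 11.50 and 10.12 to 10.58). Neutrophil markers (5 of 9 lower, 12.92 to 13.73 and 12.03 to 13.52), monocyte markers (6 of 7 lower, 11.25 to 12.16 and 10.57 to 11.31) and platelet markers (8 of 9 higher, 13.51 to 13.74 and 13.51 to 13.83) overlapped. These ranges are of the summed level, which the brightest genes of each list set. Relative to the median gene of each array, natural killer cell markers overlapped (-0.03 to 0.42 and -0.54 to 0.11). Platelet markers did not overlap on that scale (-0.48 to -0.06 and 0.11 to 0.26), nor did reticulocyte, B cell and T cell markers. By the mean deviation from each gene's own average only the B cell markers did not overlap. Of the defining markers Hba-a1 and Pax5 lay below the median of the array in all 8 mice. In whole blood, fewer cells of a type and less RNA per cell cannot be told apart, and the part of these shifts in the synthetase values was not tested.

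Most cytosolic synthetases had a lower mean in the blood of RST mice, and the asparaginyl enzyme Nars went the other way. At the brightest probe set 16 of 19 cytosolic genes were lower, with differences from -0.94 (Lars) to 0.92 (Nars) and a median of -0.63. Among the mitochondrial synthetases 12 of 16 were lower, from -0.78 (Iars2) to 0.76 (Fars2), with a median of -0.15. All 3 scaffolds were lower, with a median of -0.69, which was -0.25 without RST 4 and -0.23 with the hybridization controls as a covariate. Over all 11762 genes with a probe set past the filter 67.6% were lower and the median was -0.25, and over all 18193 genes without a filter 54.4% were lower and the median was -0.04. The median of the cytosolic synthetases lay 0.48 below that of the mitochondrial synthetases (difference -0.48). Compartment and signal level were not separated in this difference. A stricter filter, above the 60th percentile of the array in all 4 arrays of a group, kept 16 cytosolic and 3 mitochondrial genes. Over all genes past that filter 73.8% were lower and the median was -0.35.

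**Figure D1:**
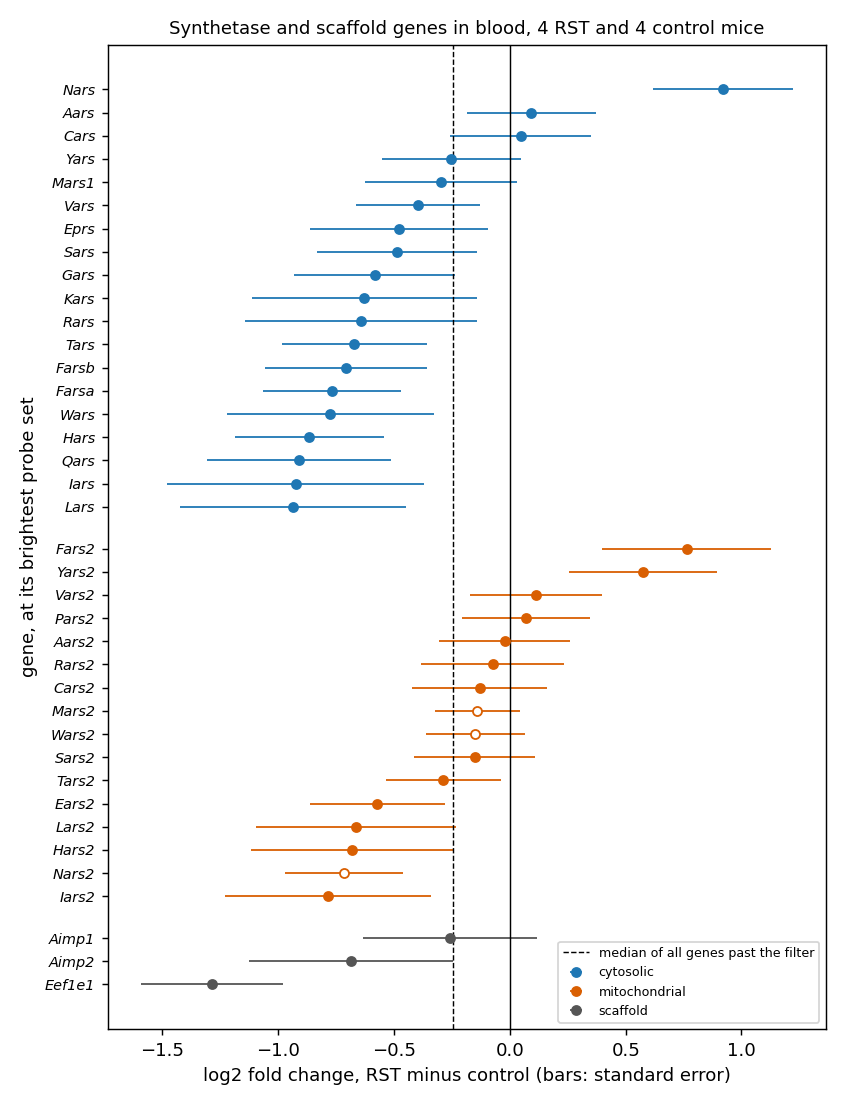
Log2 fold change (RST minus control, horizontal axis) of each member gene at its brightest probe set, with bars for the standard error from limma (4 mice per group) and open points for genes below the filter. Of the cytosolic genes 16 of 19 lie below 0, Nars stands alone at 0.92, the mitochondrial genes centre near -0.15 and Eef1e1 is the lowest of all at -1.29.

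No member passed the test. With limma and Benjamini-Hochberg adjustment over all 25084 probe sets past the filter, 0 met both an adjusted p under 0.05 and more than a 1.5-fold difference, a background of 0%, and the smallest adjusted p of a member was 0.321. With an unadjusted p in place of the adjusted p, 8 of the 58 member probe sets past the filter were lower (13.8%, against 10.4% or 2613 of all tested) and 1 was higher (1.72%, against 2.89% or 724 of all tested). The lower ones belonged to Farsa, Farsb, Hars, Qars, Ears2, Hars2 and Eef1e1, and the higher one was Nars. All RST mice lay below all control mice for 5 member probe sets (8.62%, against a background of 5.76%) and above them for 2 (3.45%, against 2.23%). These shares were near those of all probe sets.

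The lower centre of the cytosolic genes was not seen in every choice of arrays. With only RST 1 to 3 and control 3 and 4, a comparison chosen after seeing the data, 8 of 19 cytosolic genes were lower and their median was 0.11, 8 of 16 mitochondrial genes were lower and their median was -0.01, and the difference between the medians was 0.12. The 3 arrays were left out for their hybridization controls (control 1 and control 2) and their low level (RST 4), but they also held the highest control and the lowest RST values of the cytosolic genes, so that leaving them out by itself moves this median up. In the same 5 arrays 50.9% of the genes past the filter were lower. Without RST 4 alone the cytosolic median was -0.34, the mitochondrial median -0.06 and their difference -0.29. Nars (1.12), Fars2 (1.21), Yars2 (0.69), Eef1e1 (-0.82), Farsa (-0.67), Lars2 (-0.58), Vars (-0.52), Gars (-0.41), Nars2 (-0.39) and Hars (-0.37) had the same sign in the 5 arrays as in all 8, among others. From lower to higher turned 8 cytosolic genes, Rars (0.52), Kars (0.35), Yars (0.27), Iars (0.21), Eprs (0.21), Mars1 (0.14), Lars (0.11) and Sars (0.05), 4 mitochondrial genes, Cars2 (0.35), Rars2 (0.25), Hars2 (0.15) and Wars2 (0.01), and 2 of the 3 scaffolds, Aimp1 (0.29) and Aimp2 (0.13).

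**Figure D2:**
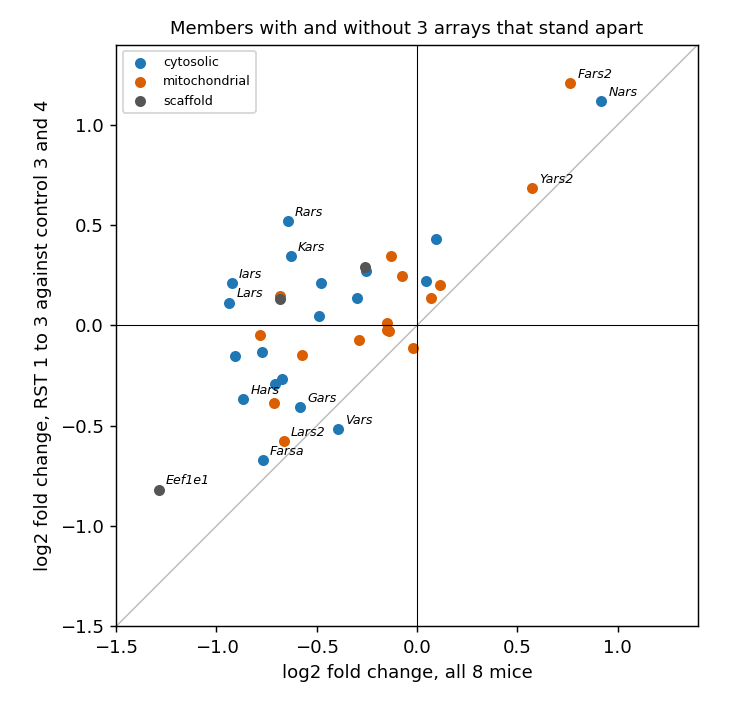
Log2 fold change of each member gene in all 8 mice (horizontal axis) and with only RST 1 to 3 against control 3 and 4 (vertical axis), with the diagonal marking equal values. Nars, Fars2 and Yars2 lie at upper right and Eef1e1 and Farsa at lower left, while Rars, Kars, Iars and Lars are below 0 on the horizontal axis and above 0 on the vertical.

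Nars, which charges the tRNA for asparagine, was the cytosolic synthetase with the smallest p at the brightest probe set. Its level (probe set 1452866_at) was 7.35, 7.43, 6.93 and 7.67 in control and 8.46, 8.83, 7.95 and 7.81 in RST mice. All 4 RST mice lay above all 4 control mice, with RST 1 and RST 2 highest. The difference was 0.92 (SE 0.30, a 1.89-fold higher level, limma adjusted p = 0.321), and the two-sided exact permutation p was 0.0286, the smallest that 4 against 4 mice can give. A second probe set of Nars (1428666_at) gave 6.47, 6.60, 5.82 and 6.49 in control and 7.30, 7.79, 7.19 and 5.78 in RST mice. There RST 1 to 3 lay above all control mice and RST 4 below them all, with a difference of 0.67 (SE 0.41, limma adjusted p = 0.459). In every other setting run, the difference at the brighter probe set stayed above 0, from 0.58 to 1.18, with adjusted p from 0.115 to 0.692.

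Of the cytosolic genes lower in RST, Hars, the histidyl enzyme, had the smallest p at the brightest probe set. It is the target of the anti-Jo-1 autoantibody of myositis. Its level (1438510_a_at) was 7.88, 7.26, 7.12 and 7.02 in control and 6.71, 6.59, 6.80 and 5.71 in RST mice. The groups did not overlap, and RST 4 was far below the rest. The difference was -0.87 (SE 0.32, limma adjusted p = 0.332, exact permutation p = 0.0286). Its other probe set gave -0.59 with overlapping groups.

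Cytosolic phenylalanyl-tRNA synthetase is built of a catalytic alpha subunit, Farsa, and a beta subunit, Farsb, and both had a lower mean in RST. Farsa (1424907_a_at) was 5.29, 5.47, 5.30 and 5.74 in control and 5.38, 4.50, 4.66 and 4.19 in RST mice. RST 1 lay among the control mice and the other RST mice below them, with a difference of -0.77 (SE 0.30, limma adjusted p = 0.332, exact permutation p = 0.0857). The probe sets of Farsa disagreed. A dimmer probe set of the gene (1446301_at) was 3.94, 4.12, 4.10 and 3.80 in control and 4.32, 4.42, 4.50 and 4.27 in RST mice. Here all RST mice lay above all control mice, with a difference of 0.39 (SE 0.23, limma adjusted p = 0.458), while the remaining probe sets gave -0.36 and -0.28.

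Farsb (1423709_s_at) was 6.96, 6.89, 6.62 and 6.94 in control and 6.21, 6.64, 6.63 and 5.11 in RST mice. RST 2 and RST 3 reached the level of control 3, and RST 4 was lowest by more than 1 log2 unit. The difference was -0.71 (SE 0.35, limma adjusted p = 0.385). All 4 probe sets of Farsb were lower, from -1.43 to -0.63. The lowest of them (1435103_x_at) had all RST mice below all control mice (limma adjusted p = 0.321). Its suffix marks probes that can also bind other transcripts. At the other probe sets, from -0.71 to -0.63, the groups overlapped.

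Qars, the glutaminyl enzyme, and Tars, the threonyl enzyme, were the remaining cytosolic genes with the smallest p at the brightest probe set. Qars (1456726_x_at, whose suffix marks probes that can also bind other transcripts) was 7.83, 8.05, 7.20 and 6.88 in control and 6.43, 7.38, 6.85 and 5.66 in RST mice. RST 2 lay inside the control range, and the difference was -0.91 (SE 0.40, limma adjusted p = 0.358). The other probe sets of Qars past the filter, without that suffix, gave -0.49 and -0.74 with overlapping groups. Tars (1460323_at) was 6.08, 6.46, 6.11 and 5.93 in control and 5.63, 5.95, 5.68 and 4.65 in RST mice. RST 2 just overlapped control 4, and the difference was -0.67 (SE 0.32, limma adjusted p = 0.375).

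**Figure D3:**
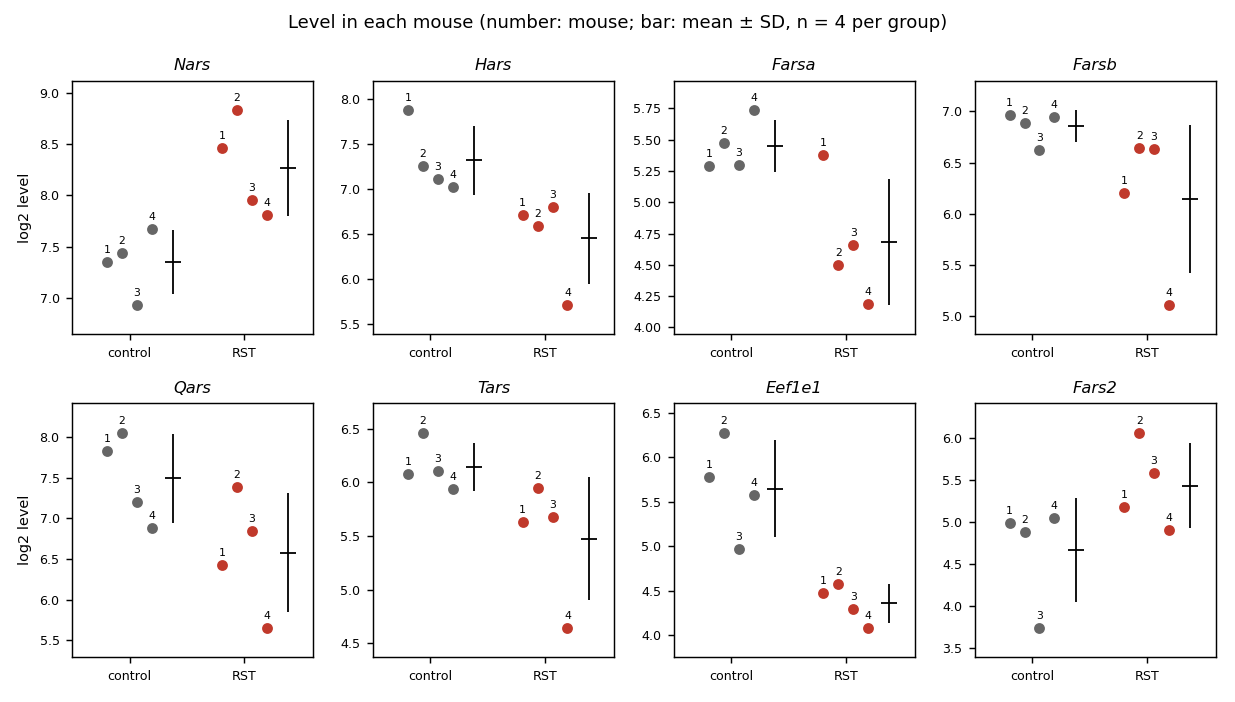
Log2 level (vertical axis, own scale per gene) of 8 member genes in each control mouse (grey) and RST mouse (red), with mouse numbers above the points and mean ± SD (n = 4) as black bars. Nars lies higher in all RST mice (7.81 to 8.83 against 6.93 to 7.67), Eef1e1 and Hars lie lower in all RST mice, and RST 4 is the lowest RST mouse in every panel.

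The other cytosolic synthetases overlapped between the groups. Members held in the multi-synthetase complex were all lower in mean. They were Lars (-0.94), Iars (-0.93), Qars (-0.91), Rars (-0.64), Kars (-0.63), Eprs (-0.48) and Mars1 (-0.30), with a median of -0.64 over the 7 genes. Of the 12 cytosolic genes outside the complex 9 were lower, with a median of -0.54. Besides those described these were Wars (-0.78), the tryptophanyl enzyme that interferon-gamma induces, Gars (-0.58), Sars (-0.49), Vars (-0.40) and Yars (-0.25), while Aars (0.09) and Cars (0.05) lay near 0. A second probe set of Aars gave -0.60. The value of Wars is from a probe set with the same suffix as that of Qars (1434813_x_at), and its other probe sets past the filter gave -0.48 and -0.18.

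The complex members varied widely among the control mice. Their mean deviation from each gene's own average was 0.90 and 0.88 in control 1 and control 2, -0.08 and -0.32 in control 3 and control 4, and -0.28, 0.43, -0.15 and -1.38 in RST 1 to 4. The gap between control 1 and control 4 was thus larger than the gap between the group means (0.34 and -0.34). For the genes outside the complex the same score was 0.33, 0.36, 0.02 and 0.05 in control and -0.16, 0.17, -0.06 and -0.69 in RST mice. The synthetases also fall into structural classes, and 9 of 10 class I genes (median -0.56) and 7 of 9 class II genes (median -0.63) were lower.

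Of the 13 cytosolic synthetases listed here as ATF4 targets 10 were lower, with a median of -0.48, and of the 6 others all were lower, with a median of -0.74. Nars was among the listed targets and was the listed gene with the largest positive difference. A sequence that ATF4 binds together with a C/EBP partner (TGATGNAA, searched on both strands) was looked for in the RefSeq promoters of build GRCm38.p6, each running from 250 bases before to 50 bases after the start site. It was found in 5 of 12 cytosolic synthetase promoters in the table (41.7%), in 0 of 15 mitochondrial ones, in 0 of 4 of the scaffolds and in 1304 of all 32851 promoters (3.97%). The match nearest the start site of each of these 5 genes is shown so that the letters can be compared, with the 11 bases on either side and with the motif in capitals, which reads TGATGNAA on one strand and its reverse complement on the other.
Aars, chr8:111033840-111033869, plus strand: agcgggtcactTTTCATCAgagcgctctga
Gars, chr6:55037960-55037989, plus strand: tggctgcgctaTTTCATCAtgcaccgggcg
Iars, chr13:49682126-49682155, plus strand: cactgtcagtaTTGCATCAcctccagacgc
Tars, chr15:11399655-11399684, minus strand: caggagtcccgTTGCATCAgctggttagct
Yars, chr4:129189895-129189924, plus strand: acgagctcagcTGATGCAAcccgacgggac

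The match shown began 30 bases before the start site for Gars, 15 bases before it for Tars and within 9 bases after it for Aars, Iars and Yars. The genes with a match were Aars (0.09), Yars (-0.25), Gars (-0.58), Tars (-0.67) and Iars (-0.93), so 4 of 5 were lower and their median was -0.58. All 7 with a promoter and no match (Eprs, Farsa, Farsb, Kars, Mars1, Qars and Sars) were lower, with a median of -0.63. Cars, Hars, Lars, Nars, Rars, Vars and Wars were not in the promoter table. A match is a run of letters and does not show that a factor was bound.

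Eef1e1, the scaffold also known as p18 or AIMP3, had the smallest p of all members. Its level (1449044_at) was 5.77, 6.27, 4.97 and 5.57 in control and 4.47, 4.58, 4.30 and 4.09 in RST mice. The groups did not overlap, and the RST mice lay closer together (SD 0.22) than the control mice (SD 0.54). The difference was -1.29 (SE 0.31, a 2.44-fold lower level, limma adjusted p = 0.321, exact permutation p = 0.0286). It stayed below 0 in every other setting run, from -1.62 to -0.94 with adjusted p from 0.0999 to 0.692, and at -0.82 in the 5 arrays described above.

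Aimp2, the scaffold that holds the lysyl enzyme in the complex, was 6.49, 6.48, 5.60 and 5.85 in control and 5.81, 6.34, 5.42 and 4.11 in RST mice. RST 1 and RST 2 lay inside the control range and RST 4 far below it, and the difference was -0.69 (SE 0.44, limma adjusted p = 0.479). Aimp1, which also gives rise to the secreted cytokine EMAP II, was 6.95, 6.91, 6.75 and 5.81 in control and 6.06, 6.49, 7.18 and 5.66 in RST mice. RST 3 was the highest of all mice, and the difference was -0.26 (SE 0.38, limma adjusted p = 0.767).

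The mitochondrial synthetases held both signs. Fars2, the mitochondrial phenylalanyl enzyme, which works as a single chain, was 4.99, 4.88, 3.75 and 5.05 in control and 5.18, 6.06, 5.58 and 4.90 in RST mice. RST 1 to 3 lay above all control mice and RST 4 among them, with a difference of 0.76 (SE 0.37, limma adjusted p = 0.379). Yars2, the tyrosyl enzyme whose defects in people cause a myopathy with sideroblastic anaemia, was 2.94, 3.89, 2.77 and 2.90 in control and 3.46, 3.57, 3.53 and 4.24 in RST mice. Only control 2 overlapped the RST mice, and the difference was 0.57 (SE 0.32, limma adjusted p = 0.425), at levels near the median of the arrays.

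Nars2, the mitochondrial asparaginyl enzyme, was 3.45, 3.28, 3.32 and 3.01 in control and 2.58, 2.96, 2.79 and 1.86 in RST mice. All RST mice lay below all control mice, with a difference of -0.72 (SE 0.25, adjusted p = 0.386 in a limma fit of all probe sets), but the gene was below the median of the array in 7 of 8 mice and did not pass the filter. Ears2, the glutamyl enzyme, was 4.42, 4.34, 3.74 and 3.53 in control and 3.83, 3.29, 3.35 and 3.28 in RST mice. RST 1 lay among the control mice, and the difference was -0.57 (SE 0.29, limma adjusted p = 0.394). A second probe set of Ears2 (1443023_at) had all RST mice below all control mice, with a difference of -0.77 (limma adjusted p = 0.321).

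The remaining mitochondrial genes overlapped between the groups at their brightest probe set. Iars2 (-0.78), Hars2 (-0.68) and Lars2 (-0.67) had the lowest means. Tars2 (-0.29), Sars2 (-0.15), Wars2 (-0.15), Mars2 (-0.14), Cars2 (-0.13), Rars2 (-0.08) and Aars2 (-0.02) were slightly lower, and Vars2 (0.11) and Pars2 (0.07) slightly higher. The probe sets of Lars2 past the filter ranged from -0.67 to 0.28. Both probe sets of Tars2 were lower, and for the dimmer one (-0.34) all RST mice lay below all control mice.

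Pairing the genes for the same amino acid set cytosolic against mitochondrial directly. The cytosolic gene had the more negative difference in 13 of 17 pairs, in which Fars2 and Eprs each appear more than once, and in 8 of 17 in the comparison of 5 arrays. The widest gap with the cytosolic gene lower was for phenylalanine, where Farsa and Farsb lay at -0.77 and -0.71 and Fars2 at 0.76. The widest gap the other way was for asparagine, with Nars at 0.92 and Nars2 at -0.72. The pair for histidine differed little (-0.87 and -0.68), as did that for isoleucine (-0.93 and -0.78).

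**Figure D4:**
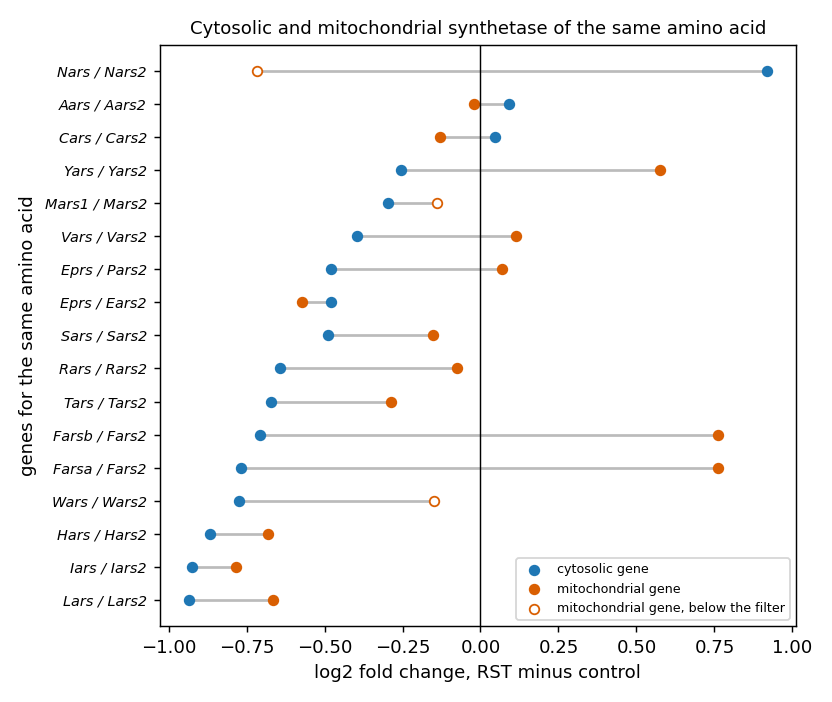
Log2 fold change (RST minus control, horizontal axis) of the cytosolic gene (blue) and the mitochondrial gene (orange, open when below the filter) for the same amino acid, joined by a grey line. The cytosolic point lies left of the mitochondrial point in 13 of 17 pairs (8 of 17 in the comparison of 5 arrays), and the asparagine pair runs the opposite way to the phenylalanine pairs.

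Within each mouse the gap between the compartments overlapped between the groups. The mean deviation of the cytosolic genes was 0.54, 0.55, -0.02 and -0.09 in control and -0.21, 0.27, -0.09 and -0.94 in RST mice. That of the mitochondrial genes was 0.33, 0.18, -0.09 and -0.06 in control and -0.04, 0.11, -0.00 and -0.43 in RST mice. The first minus the second was 0.21, 0.37, 0.07 and -0.03 in control (SD 0.17) and -0.16, 0.16, -0.09 and -0.52 in RST mice (SD 0.28), with RST 2 above control 3 and control 4. Relative to the median gene of each array, the cytosolic score ran from -0.12 to 0.30 in control and from -0.45 to 0.15 in RST mice, and the mitochondrial score from -0.10 to 0.09 and from -0.03 to 0.07. On this scale RST 4 was at 0.07 for the mitochondrial genes and at -0.45 for the cytosolic genes.

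**Figure D5:**
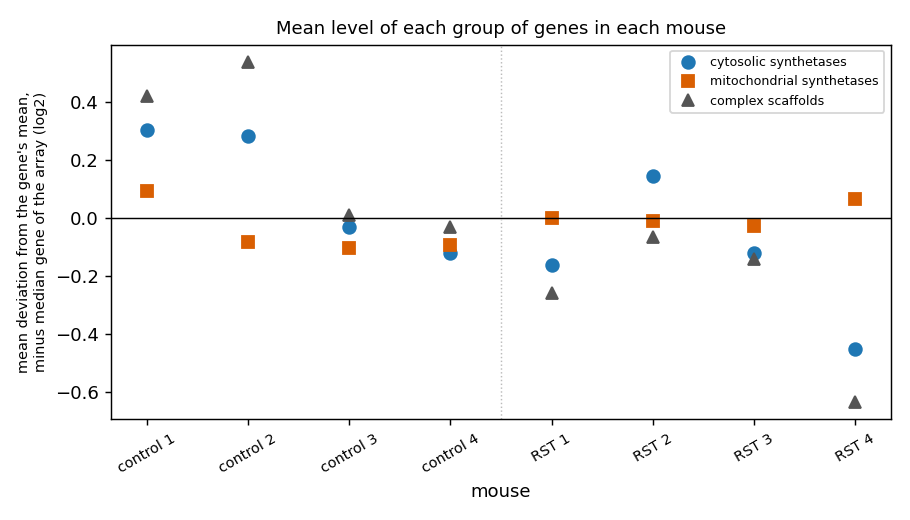
Mean deviation of each group of genes from the gene's own average (log2), minus the deviation of the median gene of the array (vertical axis), for each mouse (horizontal axis). The cytosolic synthetases lie highest in control 1 and control 2 and lowest in RST 4, and the mitochondrial synthetases stay between -0.10 and 0.09. On this scale the scaffolds lie lower in every RST mouse than in every control mouse. By the mean deviation itself the scaffolds overlapped (-0.00 to 0.81 in control, -1.13 to 0.06 in RST mice), and by the summed level they also overlapped.

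Genes next to the synthetases in protein synthesis had no member at an adjusted p under 0.05. Among 12 genes that charge, edit, export or modify tRNA 8 were lower (median -0.31). They included Tarsl2, a synthetase-like gene outside the symbol rule, at -0.32 and below the filter. Xpot, the nuclear exporter of tRNA, was at -0.69 and Dtd1, which removes D-amino acids from tRNA, at -0.56. Of 5 cytosolic elongation genes 3 were lower (median -0.16), with Eef2k at -0.59 and Eef1d at 0.30, and all 4 RST mice lay above the control mice for Eef1d and below them for Eef1b2 (-0.16), which was named after its values were seen. In mitochondria 8 of 8 translation factors were lower (median -0.30), among them Tufm (-0.74) and Mtrf1l (-0.81). Of 29 mitochondrial ribosomal protein genes 28 were lower (median -0.54), 8 of them at the same unadjusted threshold as above (10.4% of all tested probe sets were lower at it, and 67.6% of the genes past the filter were lower in mean), led by Mrps16 (-1.08, all RST below all control, limma adjusted p = 0.321) and Mrps34 (-1.41).

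The amino acid response, the program that ATF4 drives, had 13 of 28 genes higher, 15 lower and a median of -0.02. Its summed log2 level, which its brightest genes set, was 11.97 to 12.26 in control and 12.32 to 13.06 in RST mice, and relative to the median gene of each array its score was -0.32 to -0.16 in control and 0.03 to 0.35 in RST mice, without overlap on either scale, while the mean deviation itself overlapped. Of its members 4 were higher and 1, Slc7a1, was lower (-0.68) at that threshold, which 2.89% of all tested probe sets passed as higher and 10.4% as lower. Slc7a5 (1.38) and Slc3a2 (1.32), which together form a transporter of large neutral amino acids, lay higher in all RST mice (limma adjusted p = 0.321 for both), as did Mthfd2 (1.78), a mitochondrial enzyme of folate metabolism named after its values were seen. Asns, named in the same way because it makes the asparagine that Nars loads, was 3.67, 2.81, 4.85 and 4.31 in control and 6.69, 7.50, 5.39 and 4.31 in RST mice. RST 1 and RST 2, the RST mice highest for Nars, were also highest for Asns, and RST 4 lay inside the control range, with a difference of 2.06 (SE 0.64, limma adjusted p = 0.321). This order was not particular to Nars and Asns. The mean deviation of the reticulocyte markers was 0.52, 0.64, 0.28 and -0.13 in RST 1 to 4, and a link between the genes was not tested. Atf4 itself differed by 0.15. Interferon-gamma inducible genes, a program that includes Wars, were lower for 9 of 11 (median -0.70), with Tap1 at -0.71 and Ifi47 at -0.70.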

How the data were processed

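Per the labels and methods, 30 ng of RNA from each of 8 mice (4 RST, 4 control) was amplified, labelled and hybridized to an array of its own. The deposited values are log2 expression levels, which the authors background-corrected, normalized between arrays and summarized per probe set. Their distributions still differed between arrays. The median of the tested probe sets was 4.31 in RST 4 and 4.82 to 5.1 on the other arrays. The tools in the submitters' processing notes are Partek, RMA and Affymetrix Expression Console 1.2.0.20, and GSRMA is named in the methods. Presence calls and scanner values were left out, and the number of arrays limits the precision.

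A filter kept the 25084 probe sets that exceeded their array's median on at least 2 arrays of either group, without the 64 control probe sets. The groups were fitted in R 4.3.3 with limma 3.58.1 (lmFit, eBayes, Benjamini-Hochberg adjustment), and a second limma fit of all probe sets served the genes below the filter. List counts and medians use every measured gene. Single values were compared by two-sided exact permutation. Scripts were tested on simulated data. Symbols came from the platform annotation and were updated through the Entrez identifier for 34754 of 34958 probe sets with 1 gene, and 932 probe sets with several genes were not named.

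Per-mouse values are given for the 6 cytosolic and 4 mitochondrial genes with the smallest p at the brightest probe set. The 3 scaffolds and Farsa, whose probe sets took opposite signs, are given in the same way. Of each other list the 2 genes with the smallest p are named. Members and lists were chosen with earlier results of these data known. Alternatives were other filters, normalizations, priors, array weights, a covariate, the methods' test, a replicate block, other choices of probe set and leaving out arrays.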

Additional observations from a re-analysis of the deposited data

Results flagged for a closer look

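In 5 of 76 sets of 4 mice (a member gene in a group), the highest or lowest mouse stood apart from the other 3 by Dixon's test, which flags about 1 in 20 such sets by chance. Fars2 was 3.75 in control 3, against a control median of 4.93. Ears2 was 3.83 in RST 1, against an RST median of 3.32. Yars2 was 3.89 in control 2, against a control median of 2.92, and 4.24 in RST 4, against an RST median of 3.55. Aimp1 was 5.81 in control 4, against a control median of 6.83.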

How the results depend on the processing

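The cytosolic median stayed below 0 in every setting but the comparison of 5 arrays, from -0.97 (arrays shifted to the hybridization controls) to -0.29 (those controls as a covariate), and from -0.74 to -0.34 when each array was left out in turn. In that comparison, with only RST 1 to 3 and control 3 and 4, chosen after seeing the data, it was 0.11, with 8 genes lower, and the cytosolic minus mitochondrial median was 0.12. That difference was -0.52 to -0.29 with each array left out, -0.22 with the covariate and -0.28 after quantile normalization. The mitochondrial median was -0.23 to -0.06 with each array left out, -0.48 with the shift to the hybridization controls, 0.12 with a shift to a common median (6 genes lower) and 0.017 at the probe set with the smallest spread. Over all genes past the filter the median also moved with the setting. It was -0.58 with the shift to the hybridization controls, -0.14 with the covariate and -0.11 without RST 4. With the shift to a common median it was 0.02, where the cytosolic median was -0.36. The causes were not tested.

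A trended robust prior called 35 probe sets, 0 of them members, and the other settings called 0. With an unadjusted p 3337 were called by limma and 2264 by the methods' test. The deviations of same-numbered mice from their group means had correlations of -0.25 to 0.42, and the labels name no pairing. These few values cannot exclude a pairing, and the main fit used none. With a replicate block 0 probe sets were called and the medians stayed at -0.63 and -0.15.

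Single genes changed sign, among them Rars, which was reported at -0.64. With the hybridization controls as a covariate Rars was 0.17, Mars1 0.029, Yars 0.053, Cars2 0.16, Pars2 -0.028 and Rars2 0.15. After quantile normalization Mars1 was 0.04, Tars2 0.00039, Cars2 0.015, Rars2 0.19, Aars2 0.10 and Aimp1 0.074. With a shift to a common median Yars was 0.011, Mars2 0.13, Wars2 0.12, Sars2 0.11, Cars2 0.14, Rars2 0.19, Aars2 0.24 and Aimp1 0.005. With the shift to the hybridization controls Aars was -0.24, Cars -0.29, Vars2 -0.22 and Pars2 -0.27, and with array weights Aars was -0.069 and Aars2 0.16. With each array left out in turn the range was -0.074 to 0.25 for Aars, -0.094 to 0.22 for Cars, -0.046 to 0.32 for Vars2, -0.12 to 0.21 for Pars2, -0.27 to 0.12 for Rars2 and -0.21 to 0.10 for Aars2.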
